A study of Mus musculus with 12 samples.

Results

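Cell cycle and mitosis genes were followed in mouse brain as transcripts of dividing progenitors. The set held 47 genes, 19 of S phase (DNA replication) and 28 of G2 phase and mitosis. Each was matched by symbol to 1 Ensembl gene among the 55487 genes counted, and all 47 passed the filter on low counts in every comparison. Each library came from 1 male mouse, and there were 4 groups of 3 mice. At P0, the day of birth, whole forebrain came from knockouts labelled cmv-cre_auts2-ex7koko and from wild-type littermates on the BL6 background. At P14, postnatal day 14, hippocampus came from knockouts labelled nes-cre_auts2-ex7koko and from controls labelled auts2-ex7-fl-het, whose Cre status the labels do not give. By their labels, knockouts of both ages lacked exon 7 of Auts2, a gene whose long product acts in neuronal development. Cmv-cre is active throughout the body and Nes-cre in neural progenitors and their progeny. Every control at P14 carried 1 floxed allele, so the 2 control groups differed in genotype as well as in age and tissue.

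A dividing cell licenses replication origins in G1 with Cdc6, Cdt1 and the Mcm2 to Mcm7 helicase, copies its DNA in S phase, and then builds a spindle under Cdk1, cyclin B, Plk1 and the Aurora kinases. E2F transcription factors drive the S-phase genes. The B-MYB and FOXM1 proteins act later, on mitotic promoters that carry a CHR element next to boxes bound by NF-Y. In the newborn forebrain these transcripts come from radial glia, intermediate progenitors, ganglionic eminence progenitors and early glial precursors. By the second postnatal week in the hippocampus, division is largely that of dentate progenitors and oligodendrocyte precursors.

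The 2 classes differed in their promoters, which are shown for genes that return in the results below. RefSeq start-site windows on GRCm38.p6, from 250 bases before to 50 after the start, were found for 40 of the 47 genes. Each line gives the 120 bases before the start, read 5′ to 3′ on the strand of the gene, with motif matches in capitals. The matches are the E2F core (TTCGCGC or TTGGCGC), the CHR element (TTTGAA or TTCGAA) and the CCAAT box, each on either strand. On the opposite strand the CCAAT box reads ATTGG, and an E2F core can overlap a CCAAT box or a second E2F core. All 6 genes lie on the minus strand. Mcm6 (chr1:128359706-128359825) is the S-phase gene with the most E2F matches. Of the other S-phase genes, only Dtl held an E2F match in this stretch. Cdk1 (chr10:69352913-69353032), Top2a (chr11:99024190-99024309) and Cdc20 (chr4:118437344-118437463) are mitotic genes with a CHR element in the stretch. Most mitotic genes with a window, such as Ccnb1 and Bub1, had none there. Ccne1 (chr7:38107491-38107610) and Anln (chr9:22389207-22389326) are the 2 genes that were higher at P14.
Mcm6: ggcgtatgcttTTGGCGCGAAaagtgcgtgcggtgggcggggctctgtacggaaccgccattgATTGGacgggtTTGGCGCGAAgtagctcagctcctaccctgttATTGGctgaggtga
Cdk1: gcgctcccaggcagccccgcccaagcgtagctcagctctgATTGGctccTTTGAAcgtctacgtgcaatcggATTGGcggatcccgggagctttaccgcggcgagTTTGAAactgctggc
Top2a: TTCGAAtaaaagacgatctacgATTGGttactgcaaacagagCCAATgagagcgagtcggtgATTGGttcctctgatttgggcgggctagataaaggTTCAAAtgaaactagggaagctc
Cdc20: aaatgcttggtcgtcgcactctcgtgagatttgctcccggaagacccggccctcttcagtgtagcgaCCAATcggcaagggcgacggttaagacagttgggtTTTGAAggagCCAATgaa
Ccne1: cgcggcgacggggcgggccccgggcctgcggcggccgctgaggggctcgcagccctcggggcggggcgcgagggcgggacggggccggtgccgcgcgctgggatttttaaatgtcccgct
Anln: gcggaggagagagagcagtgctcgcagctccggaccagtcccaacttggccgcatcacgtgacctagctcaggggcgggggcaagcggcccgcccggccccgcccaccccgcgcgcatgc
In the stretch of Mcm6, 4 E2F matches in 2 overlapping pairs stood near 2 CCAAT boxes, and no CHR element was found. Cdk1 held 2 CHR elements and 2 CCAAT boxes, and Top2a held 2 and 3. Cdc20 held 1 CHR element between 2 CCAAT boxes. The stretches of Ccne1 and Anln held none of these letters, though Anln had 2 CHR matches in the bases after its start.

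Over all genes with a window, 20 of 24 mitotic genes (83.3%) had a CHR element, against 3 of 16 S-phase genes (18.75%) and 21.7% of the 27025 genes in the table. An E2F core was present in 7 of 16 S-phase genes (43.75%), in 5 of 24 mitotic genes (20.8%) and in 4.47% of all genes. The CCAAT box was common in both classes, with 11 of 16 and 21 of 24 genes, against 41.1% of all genes. The pairing of CHR element and CCAAT box was found in 19 of 24 mitotic genes (79.2%) and in 8.61% of all genes. A match describes the letters in this window and shows no binding. Only the E2F letters given above were searched, so a gene without a match may carry another form of the E2F site.

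**Figure D1:**
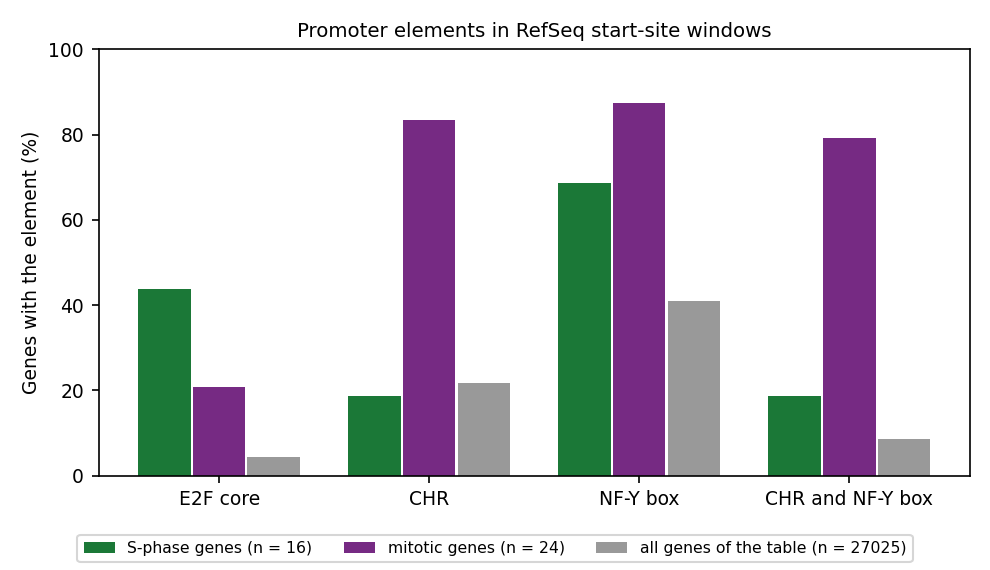
Share of genes (%) whose RefSeq start-site window holds each promoter element, for 16 S-phase genes, 24 mitotic genes and all 27025 genes of the table. The E2F core stands for TTCGCGC or TTGGCGC only, and the NF-Y box is the CCAAT box. The mitotic bar for the CHR element reaches 83.3%, and the bar for all genes 21.7%.

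Total counts ran from 11247150 to 23340621 per library. The 47 genes together held 5431 to 13296 counts in a library, which was 0.0716% to 0.0843% of all counts at P0 and 0.0278% to 0.0349% at P14. The lowest count of any of the genes in any library was 13, for Cdc6 in a P14 knockout. Markers of the labelled tissues were present. Prox1, the dentate granule cell factor, averaged 191 CPM, the usual depth-scaled count, in P14 controls, and Dlx2 of the ganglionic eminences averaged 37.9 CPM in P0 wild types. Atoh1, which marks cerebellar granule cell precursors, had 0 counts in all 3 P0 wild types and at most 2 in a P0 knockout. It is 1 of 6 markers listed for the rhombic lip and cerebellar granule precursors. The sum of that list was 193 to 257 CPM in P0 wild types and 225 to 255 CPM in P0 knockouts, so other markers of it were present. Choroid plexus transcripts summed to between 158 and 2572 CPM in the P14 controls and to between 679 and 864 CPM in the P0 wild types. Auts2 itself gave 160, 136 and 155 CPM in the P0 wild types and 165, 182 and 161 CPM in the P0 knockouts. At P14 it gave 97.5, 98 and 110 CPM in the controls and 93.0, 77.5 and 75.2 CPM in the knockouts. The log2 fold changes were 0.16 (adjusted p = 0.362) and -0.30 (adjusted p = 0.111). These counts cover the whole gene and do not check the loss of exon 7.

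The control groups were compared first. S-phase transcripts summed to 357, 365 and 397 CPM in the P0 wild-type forebrains and to 186, 195 and 193 CPM in the P14 control hippocampi. Mitotic transcripts summed to 321, 324 and 339 CPM at P0 and to 128, 143 and 168 CPM at P14. Every P14 control was below every P0 wild type for both classes. In bulk tissue, fewer dividing cells and less RNA per dividing cell cannot be told apart. Age, tissue and control genotype cannot be told apart either.

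**Figure D2:**
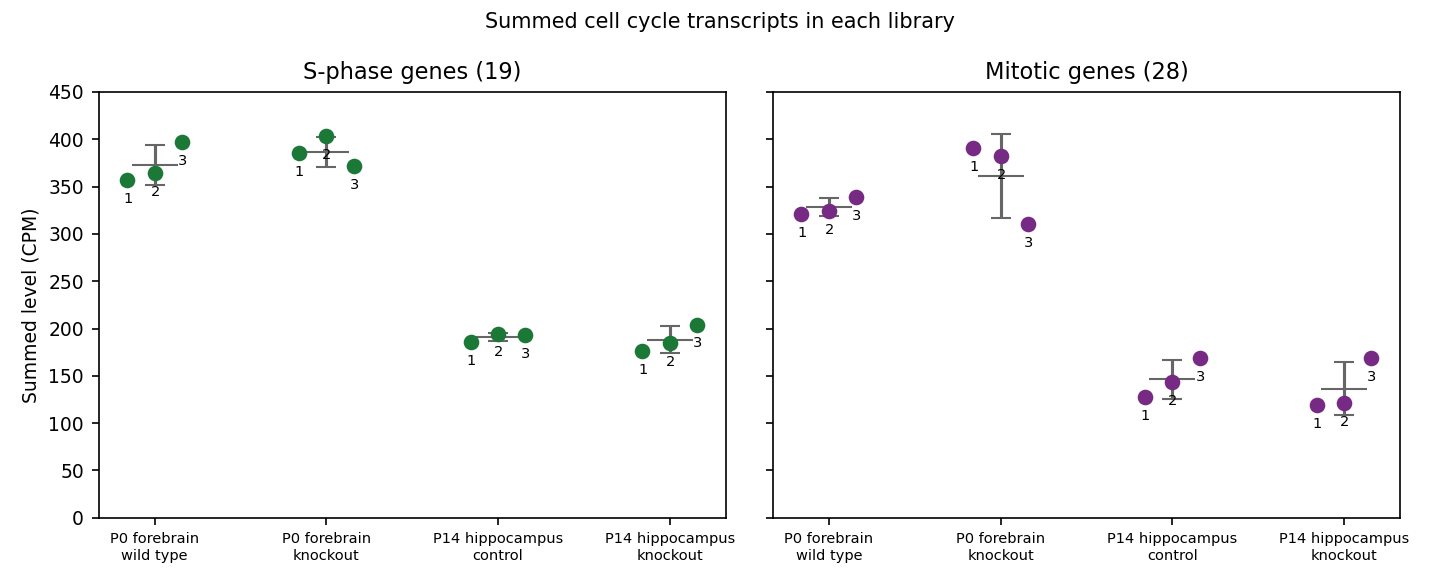
Summed level (CPM) of the 19 S-phase genes and the 28 mitotic genes in each of the 12 libraries, with replicate numbers beside the points. Bars give the mean ± SD of 3 libraries. P14 libraries lie between 176 and 204 CPM for S phase and between 119 and 169 CPM for mitosis, below all P0 libraries.

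Of the 47 genes, 43 were lower and 2 higher in P14 control hippocampus than in P0 wild-type forebrain, by edgeR's quasi-likelihood test with Benjamini-Hochberg adjustment at 0.05. Over all 18189 genes tested, 64.0% were called, 31.7% lower and 32.3% higher. The S-phase genes had a median log2 fold change of -1.03, with 16 of 19 lower, and the mitotic genes a median of -1.34, with 27 of 28 lower. The median over all genes was close to 0. All P14 controls lay below all P0 wild types for 44 of the 47 genes, against 33.7% of all genes. E2f1 and Cdc6 were not called, with log2 fold changes of 0.27 (adjusted p = 0.0821) and -0.73 (adjusted p = 0.062).

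The S-phase genes that fell furthest were Rrm2, Uhrf1 and Cdt1, and those called lower ranged from -2.09 to -0.51. Rrm2, the small subunit of ribonucleotide reductase, which makes deoxynucleotides, was at 26.7, 27.8 and 30.0 CPM in P0 wild types and at 5.43, 6.14 and 8.17 CPM in P14 controls. It was 4.27-fold lower, with a log2 fold change of -2.09 (SE 0.15, adjusted p = 4.3e-11). The epigenetic maintenance factor Uhrf1 was 3.10-fold lower (log2 fold change -1.63, SE 0.17), and the licensing factor Cdt1 2.86-fold lower (-1.52, SE 0.22). Mcm2 of the helicase fell by 1.15 on the log2 scale (SE 0.17). Pcna, the sliding clamp of DNA polymerase, fell by only 0.80 (SE 0.09) and was the S-phase gene with the highest level per length in both groups, at 30.1 CPM per kb of exon at P0 and 17.4 at P14.

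Cyclin E1, encoded by Ccne1, partners Cdk2 at the start of S phase and went the other way. Its level was 6.22, 8.99 and 5.81 CPM in P0 wild types and 13.1, 11.3 and 10.1 CPM in P14 controls. The P14 controls were all above the P0 wild types, with a log2 fold change of 0.72 (SE 0.16, adjusted p = 0.00055). Its paralogue Ccne2 fell by 0.51 (SE 0.16, adjusted p = 0.00917), and Dtl, a substrate adaptor that marks Cdt1 for destruction, fell by 0.57 (SE 0.18, adjusted p = 0.00755). Neither Ccne2 nor Dtl passed the test on the larger strand column. E2f1, the transcription factor above these genes, stood at 9.66, 8.59 and 10.4 CPM at P0 and at 12, 10.4 and 12.3 CPM at P14, and the groups overlapped. Per length, Ccne1 moved from 2.63 CPM per kb, twelfth of 19 S-phase genes, to 4.32 CPM per kb, next below Pcna and beside Mcm6 at 4.11, whose libraries overlapped it.

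The mitotic genes that fell furthest were Ccnb1, Cdk1 and Kif23. Ccnb1, cyclin B1, which drives entry into mitosis, was at 11.6, 12.1 and 13.3 CPM in P0 wild types and at 2.43, 4.08 and 3.11 CPM in P14 controls. It was 3.85-fold lower, with a log2 fold change of -1.94 (SE 0.22, adjusted p = 8.6e-08). Its kinase partner Cdk1 was 3.56-fold lower (log2 fold change -1.83, SE 0.24), and Kif23, a kinesin of the central spindle, 3.31-fold lower (-1.72, SE 0.23). The widely used proliferation markers followed: Top2a, the topoisomerase that untangles sister chromatids, was 3.21-fold lower and Mki67, which encodes the Ki-67 antigen, was 2.67-fold lower. The called mitotic genes with the smallest fall were Cenpe, a kinetochore kinesin (-0.69, SE 0.19), the spindle pole kinase Aurka (-0.74, SE 0.22) and the cytokinesis kinesin Kif20a (-0.80, SE 0.26). Kif20a was at 3.78, 3.48 and 6.42 CPM in P0 wild types, and without the highest of these libraries, replicate 3, its log2 fold change was -0.44 (adjusted p = 0.178).

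Anln was the one mitotic gene called higher at P14. It encodes anillin, a scaffold of the cytokinetic ring that is also known from myelinating oligodendrocytes. Its level was 6.81, 8.67 and 7.25 CPM in P0 wild types and 21.4, 17.9 and 18.2 CPM in P14 controls, with no overlap. The log2 fold change was 1.34 (SE 0.14, adjusted p = 2.3e-08). Per length it went from the lowest mitotic gene at P0, with 0.836 CPM per kb, to the highest at P14, with 2.12 CPM per kb. All 8 markers of myelinating oligodendrocytes were called higher at P14 as well, and their sum rose from 119 CPM in each P0 wild type to between 4388 and 6568 CPM. Their part in the level of Anln was not tested.

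**Figure D3:**
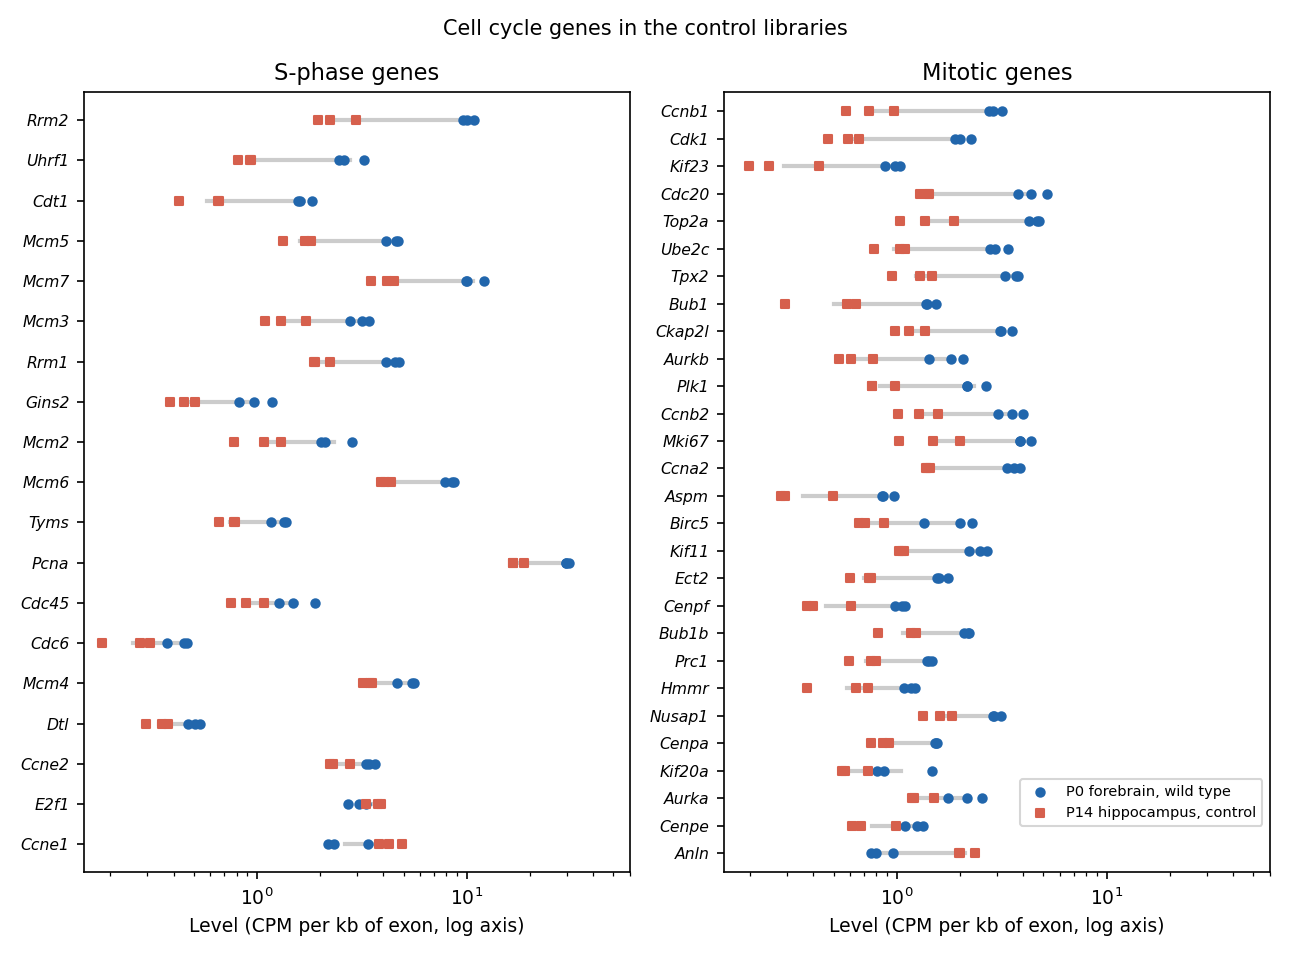
Level of each gene per kb of exon (CPM per kb, log axis) in the 3 P0 wild-type forebrains (circles) and the 3 P14 control hippocampi (squares), with genes ordered by their change. Squares lie left of circles for 44 of the 47 genes, and Ccne1, E2f1 and Anln at the bottom of the panels are the others.

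Other genes of the cycle were counted from lists that did not overlap the 47. Of 29 further replication genes tested, 23 were lower and none higher at P14, with a median of -0.94. Over all genes 31.7% were lower and 32.3% higher. Examples were the clamp loader subunit Rfc3 (-2.17, SE 0.13), the histone chaperone Chaf1b (-2.74, SE 0.19), the ligase Lig1 (-1.82, SE 0.14) and the primase Prim1 (-1.83, SE 0.15). Of 50 further mitosis and cytokinesis genes, 42 were lower, among them Racgap1, Kif15 and Ncaph. Only Pttg1, which encodes securin, was higher in that list (1.46, SE 0.15).

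The regulators above the cycle moved in both directions, as did all genes tested, with 32.3% higher and 31.7% lower. Of 13 G1 cyclins, kinases and inhibitors tested, 4 were higher and 6 lower (76.9% called, against 64.0% of all genes). The lower ones included the G1 kinases Cdk4 (-1.16, SE 0.09) and Cdk6 (-0.64, SE 0.14) and the inhibitors Cdkn1c (-2.53, SE 0.13) and Cdkn1a (-0.90, SE 0.15). Of 19 Rb, E2F, DREAM and B-MYB regulators, 5 were higher and 8 lower (68.4% called). E2f7, a repressor made in S phase, fell by 2.90 (SE 0.26) and Foxm1, the mitotic transcription factor, by 1.66 (SE 0.19), while E2f3 rose by 0.82 (SE 0.10).

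The balance between the classes was read in each library. The mean log2 CPM over S-phase genes exceeded that over mitotic genes by 0.41 ± 0.05 (SD, n = 3) in P0 wild types and by 0.71 ± 0.19 (SD, n = 3) in P14 controls. Single libraries gave 0.35, 0.43 and 0.45 at P0 and 0.84, 0.78 and 0.49 at P14. These values did not overlap, but the ratio of summed CPM, S phase to mitosis, did, at 1.11, 1.12 and 1.17 in P0 wild types and 1.46, 1.36 and 1.14 in P14 controls. In the P0 knockouts the difference of the means was 0.06, 0.21 and 0.33, below all 3 wild types. This separation was lost with a median over genes, which was -0.07, 0.08 and 0.44 in the knockouts against 0.27, 0.31 and 0.43 in the wild types. It was also lost with the ratio of summed CPM, at 0.987, 1.05 and 1.197 in the knockouts. On both of these measures the third knockout lay above all wild types. In the P14 knockouts the difference of the means was 0.88, 1.02 and 0.61, overlapping the controls. No test was run on these differences, since the genes of a class share libraries and cells.

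At P0 none of the 47 genes was called between knockout and wild-type forebrain, against 0.909% of the 16176 genes tested (147 genes). At an unadjusted p under 0.05 the count was 6, all higher in the knockout, against 16.1% of all genes in either direction. DESeq2 called 1 gene, Mcm7. The S-phase genes had a median log2 fold change of -0.06, with 9 of 19 above 0 and a range from -0.43 to 0.36. The mitotic genes had a median of 0.19 and a range from -0.17 to 0.51, with 23 of 28 above 0, against 49.9% of all genes. Knockout libraries were all above wild types for 5 of 28 mitotic genes (17.9%) and 2 of 19 S-phase genes, against 10.7% of all genes, and all below for 1 S-phase gene, Ccne1, against 11.1%.

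Mcm7, a subunit of the replicative helicase, had the smallest p among S-phase genes. It was at 43.9, 44.1 and 53.4 CPM in wild types and at 60.7, 64.1 and 58.1 CPM in knockouts. All 3 knockouts were above all 3 wild types. The log2 fold change was 0.36 (SE 0.10), with an edgeR adjusted p of 0.0868. The log2 fold changes of the other helicase subunits lay between -0.15 for Mcm3 and 0.04 for Mcm4 and Mcm6, with -0.12 for Mcm2, and none had an unadjusted p under 0.05. Mcm7 lies on chromosome 5 at 138164583 to 138172422 on GRCm38, 5.62 Mb from Auts2, and the part of sequence linked to the targeted allele in its level was not tested. Its exons overlap those of Cops6 and Ap4m1 on the other strand, which unstranded counts cannot separate.

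E2f1 was at 9.66, 8.59 and 10.4 CPM in wild types and at 11.1, 11.5 and 12.5 CPM in knockouts. The groups did not overlap, with a log2 fold change of 0.28 (SE 0.14, adjusted p = 0.339). Gins2, of the GINS complex that activates the helicase, had the lowest log2 fold change, -0.43 (SE 0.24, adjusted p = 0.403), but its value was 0.46 on the larger strand column. Gins2 shares 2758 of its 4097 exon bases with Gse1 on the opposite strand. Pcna overlapped, at 71.6, 71.3 and 74.0 CPM in wild types and 72.0, 80.7 and 73.4 CPM in knockouts, with a log2 fold change of 0.05 and a 95% interval from -0.12 to 0.22.

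The mitotic gene with the smallest p was Cenpa, the histone H3 variant of centromeres. It was at 8.99, 9.07 and 8.91 CPM in wild types and at 11.9, 13.8 and 12.8 CPM in knockouts, without overlap. The log2 fold change was 0.51 (SE 0.13, adjusted p = 0.0844). Plk1, the kinase of spindle assembly and mitotic exit, was at 5.88, 4.78 and 4.76 CPM against 6.68, 7.71 and 6.53 CPM in knockouts, a log2 fold change of 0.44 (SE 0.18, adjusted p = 0.249). The knockouts were again all above the wild types.

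Ube2c, the ubiquitin conjugating enzyme of the anaphase promoting complex, was at 7.65, 8.83 and 7.25 CPM in wild types and 9.07, 11.9 and 9.80 CPM in knockouts (log2 fold change 0.37, SE 0.16, adjusted p = 0.272). Nusap1, which bundles spindle microtubules, was at 11.7, 11.8 and 12.7 CPM in wild types and 20.1, 16.5 and 11.8 CPM in knockouts. The third of its knockouts lay within the wild types, and the log2 fold change was 0.40 (SE 0.17, adjusted p = 0.272). Aurka and Prc1 were the other mitotic genes without overlap, at 0.41 and 0.19 on the log2 scale.

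The markers usually read as proliferation showed no such separation. Mki67 was at 38.9, 38.9 and 43.7 CPM in wild types and 42.6, 46.3 and 32.9 CPM in knockouts, a log2 fold change of -0.01 with a 95% interval from -0.26 to 0.24. Top2a had a log2 fold change of -0.05 (-0.27 to 0.16), Cdk1 of 0.23 (-0.15 to 0.61) and Ccnb1 of 0.18 (-0.13 to 0.50). For all 47 genes the 95% interval at P0 lay within 1 log2 unit of 0, so a change of 2-fold or more lay outside it. The outermost limits were -0.93 and 0.97, in a fit that took no account of the library numbers described below.

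**Figure D4:**
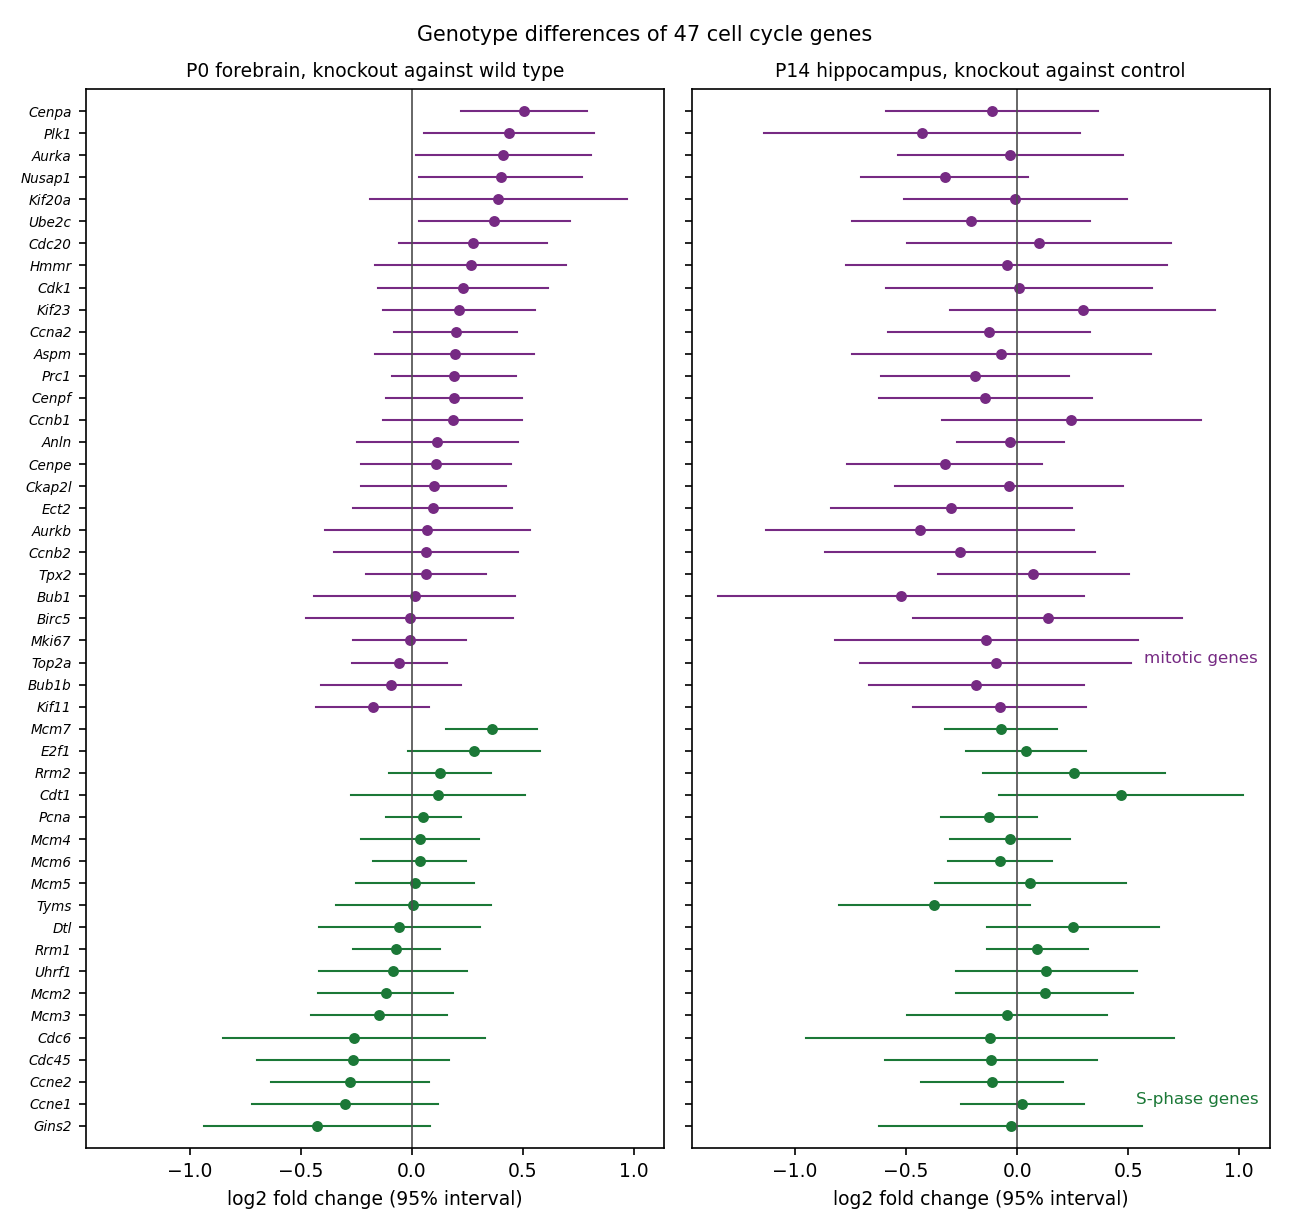
Log2 fold change of each of the 47 genes, knockout against control, with 95% intervals, at P0 (left) and P14 (right), ordered by the P0 value within mitotic (purple) and S-phase (green) genes. At P0 23 of 28 mitotic points lie right of 0, and at P14 6 of 28 do.

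The P0 libraries carry numbers in 2 runs, 1407 to 1410 (2 knockouts and 2 wild types) and 1415 with 1416 (1 of each). A run here means consecutive numbers only, since the labels do not say what the numbers mark. Within the first run, 24 of 28 mitotic genes were higher in knockouts, with a median difference of 0.28 in log2 CPM. Within the second run 12 of 28 were higher, with a median of -0.12. The S-phase medians were 0.03 and -0.15, and those of all genes were 0.001 and 0.011. Cenpa (0.50 and 0.51), Plk1 (0.43 and 0.45) and Ube2c (0.34 and 0.43) were higher in the knockout in both runs. Mcm7 (0.50 and 0.12) and Aurka (0.57 and 0.16) were so to unequal extents. Nusap1 (0.63 and -0.11), Kif20a (0.92 and -0.53) and Mki67 (0.19 and -0.41) changed sign between the runs. The third knockout library held the lowest level of the knockouts for 20 of 28 mitotic genes.

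Counts of calls moved with these libraries. With the 4 libraries of the first run alone, edgeR called 4 of the 47 genes higher, namely Nusap1, Cenpa, Mcm7 and Kif20a. Over all genes 2107 were called in that fit, and 16176 genes were tested in the fit on all P0 libraries. Without the third knockout edgeR called Nusap1 (0.59) and Mcm7 (0.39), and without the third wild type only Mcm7 (0.47). Calls over all genes ran from 1 to 775 when single P0 libraries were left out. With the run as a term edgeR called Mcm7 alone of the 47 genes (0.36, adjusted p = 0.0484).

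**Figure D5:**
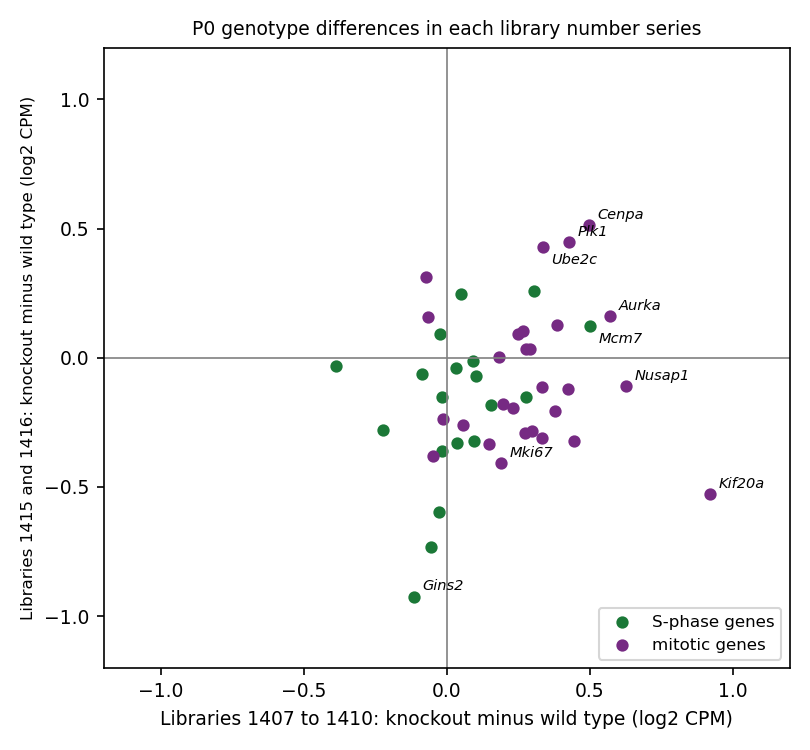
Knockout minus wild type at P0 (log2 CPM) for each of the 47 genes, in libraries 1407 to 1410 (horizontal axis) and in libraries 1415 and 1416 (vertical axis). Most mitotic points (purple) lie right of 0, 24 of 28, while 12 of 28 lie above 0.

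Markers of progenitors and of other cell types were read beside these values. The 12 radial glia markers were 6 above and 6 below 0 at P0. None was called by edgeR, 3 had an unadjusted p under 0.05, and DESeq2 called the glutamate transporter Slc1a3 lower (-0.35, adjusted p = 0.0308). Their sum was lower in the knockouts without overlap, at 1372 to 1406 CPM in wild types and 1231 to 1314 CPM in knockouts. A sum follows the most abundant markers, and the mean log2 CPM of these markers was 5.61 in both groups. Of 8 ganglionic eminence markers, 7 were above 0 at P0 and none was called, and their sum was 261 to 271 CPM in wild types and 294 to 328 CPM in knockouts. Of 8 intermediate progenitor markers, 6 were above 0 and Insm1, a factor of delaminating progenitors, was called higher (0.59, SE 0.10, adjusted p = 0.0214), while the sums overlapped at 261 to 282 and 260 to 293 CPM. All 8 markers of oligodendrocyte precursors were below 0 with none called, at 281 to 333 CPM in wild types and 242 to 254 CPM in knockouts. At an unadjusted p under 0.05, 3 of the ganglionic eminence markers were higher and 4 of the oligodendrocyte precursor markers lower. Over all genes 16.1% had such a p, in either direction. DESeq2 called 0 of the ganglionic eminence and 2 of the oligodendrocyte precursor markers. Of all matched markers, Atoh1 was the one at 0 in every library of a group.

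Markers of differentiated cells were counted in the same way. Of 8 astrocyte markers 6 were below 0, and the water channel Aqp4 (-0.59, SE 0.12, adjusted p = 0.0416) and the bicarbonate transporter Slc4a4 (-0.52, SE 0.10, adjusted p = 0.039) were called lower, with 4 called by DESeq2. The astrocyte sum was 492 to 626 CPM in wild types and 441 to 459 CPM in knockouts. Of 10 markers of mature neurons 9 were below 0, and the vesicular glutamate transporter Slc17a7 was called lower (-0.54, SE 0.11, adjusted p = 0.0368). Of 8 microglia markers 6 were below 0, and the purinergic receptor P2ry12 was called lower (-0.93, SE 0.18, adjusted p = 0.0368). The sums of these 2 lists overlapped between the groups. All 4 calls were lost without either of the first 2 knockouts or the first 2 wild types, that of Slc17a7 also without the third wild type, and all 4 with non-robust fitting. Those of Aqp4, P2ry12 and Slc17a7 were lost on the larger strand column, and that of Aqp4 in 1 fit on all libraries. Of the lists with no call, 5 of 8 endothelial markers and all 8 mural and meningeal markers were below 0. Sums without overlap were also found for choroid plexus, at 679 to 864 CPM in wild types and 913 to 1009 CPM in knockouts, and for myelinating oligodendrocytes, at 119 CPM in each wild type and 99.6 to 116 CPM in knockouts. The mean log2 CPM of choroid plexus was 3.67 ± 0.18 (SD, n = 3) in wild types and 3.70 ± 0.06 in knockouts. That of myelinating oligodendrocytes was 2.48 ± 0.16 and 2.36 ± 0.27. The part of all these cell types in the mitotic values was not tested.

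All 11 genes of cycle exit and neuronal birth were above 0 at P0, and 2 were called. Sox11, a factor of newborn neurons, was at 554, 462 and 511 CPM in wild types and at 654, 722 and 643 CPM in knockouts (0.40, SE 0.08, adjusted p = 0.041). Igfbpl1, also of newborn neurons, was at 178, 172 and 221 CPM against 305, 317 and 256 CPM (0.61, SE 0.11, adjusted p = 0.0267). Without single libraries the log2 fold change of Sox11 ran from 0.33 to 0.46 and that of Igfbpl1 from 0.54 to 0.74. The calls were lost without either of the first 2 knockouts or the first 2 wild types, and for Sox11 also without the third wild type. Non-robust fitting ended the call of Sox11 (adjusted p = 0.0657), and the GC content offset that of Igfbpl1 (adjusted p = 0.0709). The lost calls of Insm1, at 0.50 to 0.61, came without those same 4 libraries.

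No gene of the further replication, G1 or Rb and E2F lists was called at P0 by edgeR or DESeq2. In these lists 2 of 29, 3 of 12 and 1 of 19 had an unadjusted p under 0.05, against 16.1% of all genes. Of the 50 further mitosis genes, 39 were above 0, with a median of 0.18. Their 1 call was Cit, the citron kinase of the cytokinetic midbody. It was lower in the knockout, at 36.2, 40.4 and 35.8 CPM in wild types and 25.0, 26.9 and 28.3 CPM in knockouts (-0.49, SE 0.10, adjusted p = 0.0368). Without one of the first 2 knockouts or the first 2 wild types it was not called, with log2 fold changes of -0.43 to -0.51 and adjusted p from 0.144 to 0.225. With non-robust fitting its adjusted p was 0.0564. Cit is also expressed in neurons.

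At P14 none of the 47 genes was called between knockout and control hippocampus by edgeR or by DESeq2, and none had an unadjusted p under 0.05. Of the 17208 genes tested, 1.99% were called and 15.2% had an unadjusted p under 0.05. The S-phase median was -0.03, with 9 of 19 above 0 and a range from -0.37 to 0.47. The mitotic median was -0.10, with 6 of 28 above 0 and a range from -0.52 to 0.29, against 48.5% of all genes. Of all 47 genes, Cdt1 lay wholly above the controls and Nusap1 wholly below, against 9.43% of all genes wholly above and 10.6% wholly below.

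Cdt1 was at 1.33, 2.07 and 2.06 CPM in controls and 2.69, 2.42 and 2.42 CPM in knockouts, a log2 fold change of 0.47 (SE 0.26, adjusted p = 0.413). Tyms, thymidylate synthase, had the smallest p among S-phase genes, at 4.74, 4.02 and 4.80 CPM in controls and 4.03, 2.93 and 3.43 CPM in knockouts. The log2 fold change was -0.37 (SE 0.20, adjusted p = 0.402). Only the first knockout of Tyms reached the lowest control. Dtl stood at 0.25 (SE 0.18), Mcm2 at 0.12 (SE 0.19), Pcna at -0.13 (SE 0.10) and E2f1 at 0.04 (SE 0.13).

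Among mitotic genes, Nusap1 was at 5.43, 6.53 and 7.43 CPM in controls and at 5.27, 4.79 and 5.34 CPM in knockouts, a log2 fold change of -0.33 (SE 0.18, adjusted p = 0.402). Cenpe stood at -0.33 (SE 0.21) and Bub1, a spindle checkpoint kinase, at -0.52 (SE 0.38). Bub1 was at 1.27, 2.51 and 2.79 CPM in controls and 1.64, 0.79 and 2.23 CPM in knockouts, and overlapped. Mki67 was at 10.3, 15.0 and 20.1 CPM in controls and 11.1, 12.1 and 18.1 CPM in knockouts, a log2 fold change of -0.14 with a 95% interval from -0.82 to 0.54. Top2a (-0.10), Cdk1 (0.01) and Ccnb1 (0.24) overlapped in the same way.

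Mitotic genes varied between animals of 1 group at P14. The median coefficient of variation of the mitotic genes was 28.5% among the P14 knockouts and 17.2% among the controls, against 10.1% and 12.5% for the S-phase genes. In the P0 wild types it was 7.58% for the mitotic genes. The third P14 knockout held the highest level of its group for 26 of 28 mitotic genes, and the third control for 19 of 28. These libraries carry the adjacent numbers 1284 and 1285, the last of the P14 numbers. Their mean log2 CPM over mitotic genes was 2.35 and 2.31, against 1.76 to 2.10 in the other P14 libraries. Differences between animals and between library numbers cannot be told apart here. Without the third knockout the mitotic median was -0.35 with 2 of 28 above 0, and without the first knockout it was 0.01. The 95% interval lay within 1 log2 unit of 0 for 25 of 28 mitotic and 18 of 19 S-phase genes.

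Of 11 genes of cycle exit and neuronal birth, 8 were below 0 at P14 and 4 were called lower, with 3 above 0. Neurod1 was at 78.2, 75.7 and 67.5 CPM in controls and 43.6, 37.3 and 43.4 CPM in knockouts (-0.82, SE 0.09, adjusted p = 0.00025). Sox11 (-0.58, SE 0.08), Igfbpl1 (-0.67, SE 0.10) and the proneural factor Neurog2 (-0.96, SE 0.21, adjusted p = 0.0296) were the other genes called lower. Every knockout was below every control for these 4 genes. Neurog2 lost its call without any single library other than the third control, with adjusted p up to 0.171. In the other direction, 2 genes of the list were higher at an unadjusted p under 0.05, against 15.2% of all genes in either direction. DESeq2 called Stmn1, the microtubule regulator stathmin, higher (0.39, SE 0.10, adjusted p = 0.00789). The summed level of the list overlapped, at 1153 to 1193 CPM in controls and 1048 to 1258 CPM in knockouts. Dentate neuroblast markers, which share Sox11, Igfbpl1 and Neurod1 with this list, summed to 731 to 824 CPM in controls and 495 to 605 CPM in knockouts, with 5 of 8 called lower. The list also holds Prox1, which was called lower (-0.76, SE 0.10, adjusted p = 0.00111).

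Of the 50 further mitosis genes, Cit was the one called at P14 by edgeR. It was at 33.3, 34.0 and 37.5 CPM in controls and 51.8, 55.9 and 45.8 CPM in knockouts, so all knockouts were higher (0.56, SE 0.09, adjusted p = 0.005). DESeq2 called Cit and, lower in the knockouts, the mitotic kinesin Kif18a (-0.94, SE 0.30, adjusted p = 0.0498), for which edgeR gave an adjusted p of 0.0791. No gene of the further replication, G1 or Rb and E2F lists was called by edgeR or DESeq2. In these lists 1 of 29, 1 of 12 and 0 of 19 had an unadjusted p under 0.05, against 15.2% of all genes.

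Markers of other cell types were counted at P14 as well. Of 8 intermediate progenitor markers 7 were below 0, and Neurog2 and Mfap4, a microfibril protein, were called lower (Mfap4 -1.005, SE 0.19, adjusted p = 0.0125). The intermediate progenitor sum was 192 to 200 CPM in controls and 166 to 183 CPM in knockouts. Of 7 ganglionic eminence markers tested 6 were above 0 and none was called by edgeR, while DESeq2 called 1. An unadjusted p under 0.05 was found for 2 of them, against 15.2% of all genes. Their sum was 64.6 to 74.9 CPM in controls and 76.6 to 80.0 CPM in knockouts. Radial glia markers had 9 of 12 below 0 with none called or under an unadjusted p of 0.05, and DESeq2 called none. Oligodendrocyte precursor markers had 6 of 8 above 0 with none called, and summed to 664 to 739 CPM in controls and 688 to 797 CPM in knockouts.

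All 8 endothelial markers were below 0 with none called by edgeR, and their sum was 251 to 265 CPM in controls and 211 to 226 CPM in knockouts. All 8 mural and meningeal and all 8 myelinating oligodendrocyte markers were below 0 with none called by edgeR. DESeq2 called 1 endothelial and 2 mural and meningeal markers lower. All 8 choroid plexus markers were above 0, with a smallest edgeR adjusted p of 0.79. The choroid plexus sums overlapped, at 158 to 2572 CPM in controls and 1384 to 2053 CPM in knockouts. Of 6 ependymal markers 5 were above 0, and Ccdc153 was called higher (1.01, SE 0.19, adjusted p = 0.011), with 2 called by DESeq2. The ependymal sum was 21.3 to 34.7 CPM in controls and 38.0 to 47.2 CPM in knockouts. Of 10 markers of mature neurons, Gad1, which makes GABA, was called lower (-0.35, SE 0.08, adjusted p = 0.0284). Without single libraries Mfap4 lost its call in 2 fits (without the first knockout or the first control), Ccdc153 in 2 (without the first or the second knockout) and Gad1 in 5 (without any library but the third control). The part of all these cell types in the mitotic values was not tested.

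The difference of the genotype effects, P14 minus P0, was tested in 1 fit over all 12 libraries. None of the 47 genes was called by edgeR or DESeq2, against 1.79% of the 18189 genes tested, and 5 had an unadjusted p under 0.05, all with the lower value at P14, against 15.3% of all genes. The mitotic genes had a median difference of -0.33, with 4 of 28 above 0 against 48.7% of all genes, and the S-phase genes one of 0.12. The genes with the smallest p were Mcm7 (-0.45, SE 0.15, adjusted p = 0.135), Nusap1 (-0.75, SE 0.25, adjusted p = 0.137), Plk1 (-0.89, SE 0.36, adjusted p = 0.241) and Cenpa (-0.64, SE 0.26, adjusted p = 0.246). Without the third P0 knockout Nusap1 was called (-0.94, adjusted p = 0.0198). Without the third P14 knockout the mitotic median was -0.56. Age, tissue, Cre line and control genotype change together in this contrast and cannot be told apart.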

How the data were processed

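RNA from P0 forebrain and P14 hippocampus of 12 male mice was sequenced as paired 150 bp reads from TruSeq libraries, per the labels' protocols. The authors deposited raw counts of reads per Ensembl gene for each library. Those counts have 1 unstranded column and 2 strand columns of about equal size, so the unstranded counts were used. The submitters' processing notes name STAR 2.7.5a, edgeR 3.12 and the builds mm10 and GRCm38, without their roles. How reads with several matches were counted is not given in the sources used here. Symbols and coordinates came from GENCODE vM21 on GRCm38, which gave 55141 of 55487 gene identifiers a symbol.

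The 47 genes and the other lists were chosen with earlier results of these data known. Each genotype comparison was fitted on its own 6 libraries over all genes with edgeR 4.0.16 in R 4.3.3 (filterByExpr, TMM, estimateDisp, robust glmQLFit, glmQLFTest), with Benjamini-Hochberg adjustment over all genes tested at 0.05. The difference of the genotype effects and the contrast of the control groups came from 1 fit on all 12 libraries. SEs were derived from the log2 fold change and its F statistic, and 95% intervals from them. CPM are on the TMM scale of all 12 libraries, and a prior count of 2 was added before taking log2 CPM. Level per length is CPM per kb of merged exons. With 3 libraries against 3, an exact two-sided permutation test cannot go below a p of 0.1, so it was not used to call genes. The fits were tested on simulated data with 200 genes changed 2-fold. They recovered 89% of these at P0 (16176 genes simulated), 87.5% at P14 (17208), 67.5% for the difference of the effects and 82% for the control contrast (18189 each), with 2.20%, 2.23%, 4.26% and 4.65% of calls false. Every simulated gene had the same spread between libraries, without runs or deviating libraries. These rates therefore do not carry over to genes that vary more. The mitotic genes, for example, had a median coefficient of variation of 28.5% among P14 knockouts.

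The labels gave the groups. Replicate numbers follow accession order and pair no mice across groups. Libraries of 1 group, each from its own animal, gave a chi-square per degree of freedom from 3.10 to 19.3 over genes, above that of repeated counting. Reads carried no molecular identifiers, so intervals on counts cover less than the full error. Genes were named by a fixed rule: Mki67, Top2a, Cdk1, Ccnb1, Pcna, Mcm2 and E2f1 always, any called member, the 3 genes of each class with the smallest p in each genotype comparison, the 3 largest and 3 smallest changes of each class between controls, up to 4 called genes of each further list, up to 2 of each marker list, and Auts2. Aurka, Prc1, Kif20a, Ccne1, Mcm3, Mcm4 and Mcm6 at P0, Anln, Slc1a3, Stmn1, Kif18a, Draxin and the genes whose promoters are shown were named after their values were seen. Alternatives were DESeq2 1.42.0, upper-quartile or RLE scaling, the strand column with more counts, non-robust fitting, a GC content offset, no filter or a floor of 10 counts in each library, other sets of libraries, and leaving out each library.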

Additional observations from a re-analysis of the deposited data

Results flagged for a closer look

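For 10 genes of the wider lists, and for none of the 47 cell cycle genes, the genotype effect differed between P14 hippocampus and P0 forebrain by the interaction term of edgeR's fit to all 12 libraries. Cit, the citron kinase of cytokinesis, was lower in the knockouts at P0 and higher at P14, with a difference of 1.04 on the log2 scale (SE 0.14, adjusted p = 0.000278). Igfbpl1 was higher in the knockouts at P0 and lower at P14, with a difference of -1.30 (SE 0.16, adjusted p = 0.000278). Sox11, of newborn neurons, gave -0.996 (SE 0.12, adjusted p = 8.6e-05). Neurod1, which was called only at P14, gave -1.06 (SE 0.15, adjusted p = 0.000668). Neurog2, the proneural factor, gave -1.39 (SE 0.28, adjusted p = 0.011), and -1.04 on the larger strand column (adjusted p = 0.164). The others were markers of cell types. Prox1 (-0.69, SE 0.13, adjusted p = 0.00775) and Draxin (-0.64, SE 0.13, adjusted p = 0.0139) belong to the dentate neuroblast list, and Mfap4 (-1.23, SE 0.28, adjusted p = 0.0258) to that of intermediate progenitors. P2ry12 of microglia (0.90, SE 0.17, adjusted p = 0.00654) and Slc17a7 of mature neurons (0.56, SE 0.13, adjusted p = 0.0334) were lower in the knockouts at P0 and were not called at P14. Single libraries left out ended the call of Draxin in 3 of 12 fits, that of Mfap4 in 7 and that of Slc17a7 in 6. The call of Slc17a7 also failed with non-robust fitting or on the larger strand column. Without single libraries the difference of Cit ran from 0.97 to 1.11 and that of Igfbpl1 from -1.40 to -1.18. The contexts differ in age, tissue, Cre line and control genotype at once, which cannot be told apart.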

How the results depend on the processing

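Of the 47 genes, the count called at P0 was 0 in the reported fit. It was 1 with DESeq2, 1 with no filter on low counts and 1 with the run of library numbers as a term. It was 2 with a GC content offset, 4 in libraries 1407 to 1410 alone, and 0 to 2 without single libraries. At P14 it was 0 throughout, and for the difference of the effects 0 to 1 without single libraries. Between the controls it was 43 to 46. Over all genes, calls at P0 went from 147 to 50 with non-robust fitting and to 375, 625, 398, 465, 2107 and 284 with DESeq2, no filter, the GC offset, the run as a term, the first run alone and 1 fit on all libraries. At P14 they went from 342 to 534 with DESeq2 and 814 with no filter, and for the difference from 326 to 205 on the larger strand column, 535 with DESeq2 and 646 with no filter. Without single libraries they ran from 1 to 775 at P0, from 104 to 1808 at P14 and from 125 to 905 for the difference.

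The S-phase median at P0 was 0.036 in the first run and -0.084 to 0.046 without single libraries. At P14 it was -0.065 to 0.088. For the difference of the effects it was 0.0035 on the larger strand column and -0.024 to 0.23 without single libraries, while the mitotic median ran from -0.56 to -0.19. Between the controls the S-phase median was -0.88 on the larger strand column and -1.12 with upper-quartile scaling. With a median over genes in place of the mean, S-phase minus mitotic level was 0.34 in P0 wild types and 1.07 in P14 knockouts. The causes were not tested.

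Among alternative values of single genes, 1677 kept their direction and side of the threshold, 83 lost and 13 gained a call, and 25 reversed their sign, all of these last in comparisons where the gene was not called. At P0 these were Gins2 on the larger strand column (0.46), Mki67 with the GC offset (0.019), and in the first run Mcm2 (0.039), Mki67 (0.19) and Top2a (0.056). At P14 they were Cdk1 with the GC offset (-0.013) and in 1 fit on all libraries (-0.0083), E2f1 with the GC offset (-0.032), and on the larger strand column Mcm7 (0.060) and Plk1 (0.13). Without single libraries, ranges that crossed 0 at P0 were -0.0076 to 0.35 for Cdk1, -0.21 to 0.075 for Mcm2, -0.11 to 0.13 for Mki67 and -0.10 to 0.030 for Top2a. At P14 they were -0.036 to 0.46 for Ccnb1, -0.35 to 0.18 for Cdk1, -0.29 to 0.12 for Cenpa, -0.030 to 0.091 for E2f1, -0.054 to 0.31 for Mcm2, -0.17 to 0.013 for Mcm7, -0.38 to 0.12 for Mki67 and -0.35 to 0.16 for Top2a.

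Animals were not paired across groups, since the labels give the groups no shared replicate numbers. The run of library numbers, which holds both P0 genotypes, was used as a term at P0 instead. At P14 the counts of single genes were low, down to 13 for Cdc6 in 1 library.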
